A study of Sus scrofa with 4 samples.

Results

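The subcortical maternal complex is a protein assembly that lies under the membrane of the mammalian oocyte, and its genes were followed here in porcine oocytes matured with or without added copper (Cu). The genes were chosen by symbol, as NLRP5, TLE6, OOEP, PADI6, KHDC3L and ZBED3, and all 6 symbols were found once among the 16050 genes with values. The RNA came from oocytes at metaphase II, which had been matured in vitro as cumulus-oocyte complexes from slaughterhouse ovaries. The Control group had no added Cu and the Cu group had copper sulfate in its maturation medium, at 25 μg/mL by the study's methods. Each library was made from 3 oocytes and amplified by Smart-seq2, which copies polyadenylated RNA from small cell numbers, and 4 libraries were analysed, namely Control 1 and 2 and Cu 1 and 3, always given in that order. The labels name no allele or other agent for either group. The donors of the pooled oocytes are not given in the sources used here, and neither labels nor methods say whether the libraries of a group came from separate cultures, so p-values measure only the spread between these libraries.

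The complex is built from proteins stored during oocyte growth and is passed to the embryo, which depends on it for the early cleavage divisions. NLRP5, also called MATER, is a large scaffold protein with leucine-rich repeats. TLE6 is a relative of the Groucho transcriptional corepressors, OOEP and KHDC3L carry KH-like RNA-binding domains, and PADI6 belongs to the peptidylarginine deiminases and is required for the cytoplasmic lattices, the fibres in which oocytes store maternal proteins. ZBED3 is a zinc finger protein that binds Axin and was found with the complex in mouse oocytes.

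Expression was given as FPKM, that is, fragments relative to the length of the transcript and the size of the library. Levels of different genes can thus be set side by side only roughly, and the number of reads behind a value is unknown. By the paper's methods the RNA was copied with oligo dT and amplified by PCR. How evenly transcripts of different genes were copied was not assessed. FPKM are shares of a library, so that more of a transcript and less of the others cannot be told apart, and the amount of RNA per oocyte is unknown. Cu 1 stood apart from the other libraries, with 9364 genes at 1 FPKM or more against 7923 to 8162 in the others, and with correlations of log2(FPKM + 1) across 8541 genes of 0.918 to 0.923 with the others against 0.959 to 0.976 among them. The 9 oocyte identity genes tested were present in every library, from DDX4, a germ cell RNA helicase, with 2.52 to 4.59 FPKM to H1FOO, the oocyte linker histone, with 2324 to 3622 FPKM. Markers of cumulus and granulosa cells were low, with values for 11 of 19 symbols, 8 of them under 1 FPKM in all libraries, and a summed level of 12.7 to 21.5 FPKM, most of it FST. After FST, GREM1 was next, at 0.90 and 1.78 FPKM for the Control libraries versus 5.05 and 1.86 FPKM for the Cu libraries. VCAN had 0.49 to 1.43 FPKM. AMH was listed at 0 in all 4 libraries and CYP19A1 was at 0.06 FPKM or less. Of 6 blood cell symbols, 3 had values, namely PTPRC, CD3E and CD79A, and they summed to 0.09 to 2.16 FPKM. No values were found for HBB, HBA1 and CD68, so red cell RNA was not assessed.

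The levels of the members ranged from 0.01 to 3075 FPKM, and their order was nearly the same in each library. OOEP was first, with 1006 to 3075 FPKM and a rank between 19 and 73 among the 16050 genes. PADI6 and TLE6 followed, PADI6 with 46.6 to 219 FPKM and TLE6 with 14.8 to 55.2 FPKM. KHDC3L had 4.65 to 10.3 FPKM, NLRP5 1.88 to 8.70 FPKM, and ZBED3 0.01 to 0.22 FPKM. OOEP alone made up 91.3% to 95.1% of the summed FPKM of the complex genes, and the complex genes together 0.331% and 0.178% of all FPKM in the Control and 0.510% and 0.324% in the Cu libraries. Of the neighbours in this order, OOEP and PADI6 were separated in all libraries by at least 14.0-fold, TLE6 and KHDC3L by at least 2.62-fold, and NLRP5 and ZBED3 by at least 8.55-fold. PADI6 and TLE6 overlapped, since TLE6 was above PADI6 in Cu 3 while the other 3 libraries had the opposite order. The ranges of KHDC3L and NLRP5 also overlapped, although KHDC3L was the higher in 4 of 4 libraries, by 1.19-fold to 3.18-fold.

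**Figure D1:**
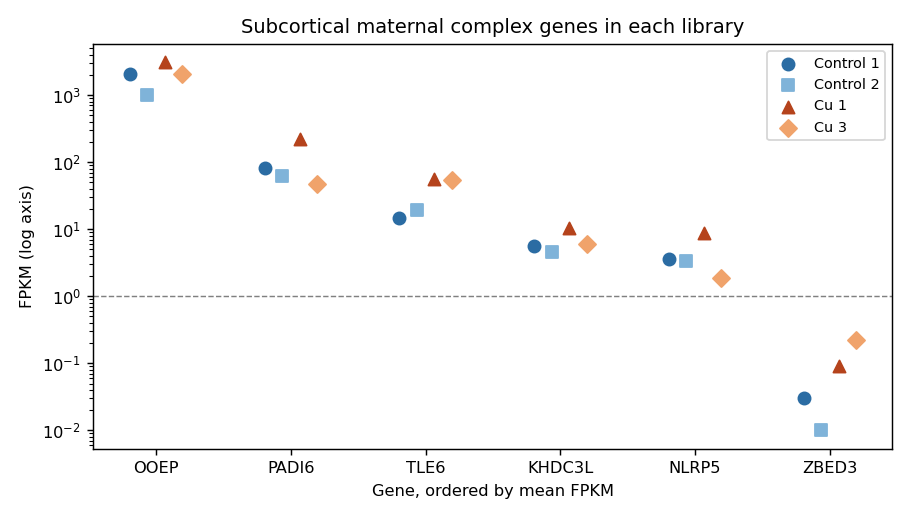
FPKM of the 6 genes on a log axis, with a point for each of the 4 libraries and the filter limit of 1 FPKM as a dashed line. OOEP lies above all others, ZBED3 lies under the line in every library, and Cu 1 is the highest library for each gene except ZBED3.

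To ask whether Cu changed these transcripts, the Cu libraries were compared with the Control libraries by limma on log2(FPKM + 1), over the 8541 genes that reached 1 FPKM in 2 or more of the libraries. The filter kept 5 of the 6 members, each at 1 FPKM or more in 4 of 4 libraries, and left out ZBED3. The 5 genes were all higher in the mean of the Cu libraries, with log2 fold changes of 0.24 to 1.64 and a median of 0.54, while 64.3% of all tested genes were higher and their median was 0.16. None of the 5 genes passed limma's test at an adjusted p of 0.05, as for 0% of all tested genes, the smallest adjusted p of any gene being 0.631. Without Cu 3, 4 members (NLRP5, TLE6, OOEP and PADI6) and 1755 genes reached it, and without Cu 1, TLE6 and 186 genes did, in fits whose spread came from the Control libraries alone. At an unadjusted p of 0.05, which 599 genes or 7.01% of all tested genes reached, there was 1 member, TLE6. TLE6 was also the only member past a log2 fold change of 1.5 in addition, and 1.76% of the tested genes passed both limits in the upward direction. The groups did not overlap for TLE6, OOEP and KHDC3L, that is 3 of the 5 tested members, with Cu above Control, beside 25.4% of all tested genes. This separation was wide only for TLE6, where the lower Cu library was 2.83 times the higher Control library, compared with 1.06 times for KHDC3L and 1.01 times for OOEP. With 2 libraries against 2, an exact permutation test cannot go below a p of 0.33. Cu 1 was the highest library for 5 of the 5 tested members and for 51.0% of all tested genes, and the part of this library in the differences was not tested.

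**Figure D2:**
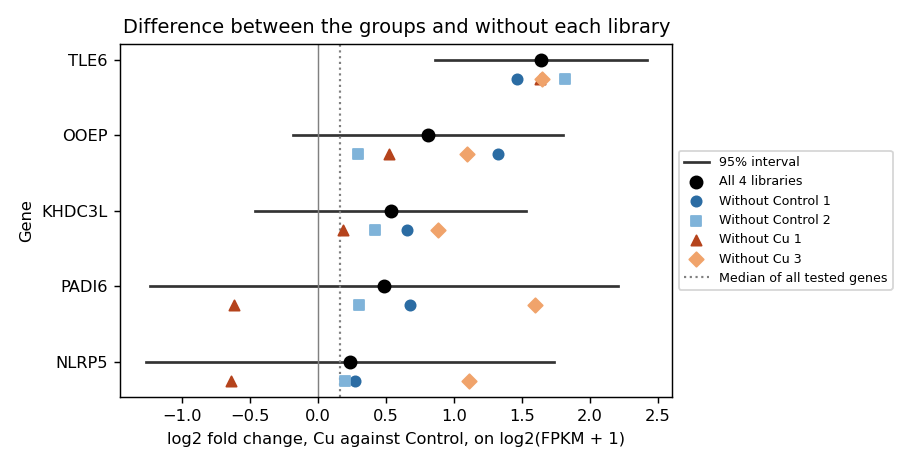
Log2 fold change of Cu against Control for the 5 tested genes (black points, all 4 libraries) with 95% intervals of limma, and the value without each library below it. The value of TLE6 stays between 1.46 and 1.82 whichever library is left out, while those of PADI6 and NLRP5 turn negative without Cu 1.

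TLE6 had the largest log2 fold change of the 5 tested members on the log2(FPKM + 1) scale. It stood at 14.8 and 19.2 FPKM for the Control libraries versus 55.2 and 54.4 FPKM for the Cu libraries, and both Cu libraries were thus well above both Control libraries. The means were 17.0 ± 3.13 FPKM in Control and 54.8 ± 0.516 FPKM in Cu (SD, n = 2 each), a ratio of 3.22. The log2 fold change was 1.64 (standard error, SE, 0.32, 95% interval 0.86 to 2.42, unadjusted p = 0.00214 and adjusted p = 0.631 in limma's test), which exceeded that of 98.3% of the tested genes and placed TLE6 at position 22 by p. Relative to the median of all tested genes the difference was 1.48. It was 1.63 without Cu 1 and 1.65 without Cu 3, so it was nearly equal in the library that stood apart and in the other. By limma, the adjusted p was 0.0179 without Cu 1 and 0.00229 without Cu 3, and over all alternatives it ranged from 0.00229 to 1. With median-of-ratios or upper-quartile scaling the log2 fold change was 1.47, under the limit of 1.5, as it also was without Control 1 (1.46). The authors' mean FPKM were 17.7 for Control and 48.7 for Cu. The position of TLE6 among all genes went from rank 3021 and 2704 in Control 1 and 2 to 1464 and 1294 in Cu 1 and 3.

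TLE6 lies at chr2:75537641-75550676 of Sscrofa11.1, 828 bases from TLE2, a Groucho corepressor gene of the same family. TLE2 stood at 36.2 and 20.8 FPKM for the Control libraries versus 69.4 and 24.1 FPKM for the Cu libraries, giving a log2 fold change of 0.56 (SE 0.57). Its groups overlapped, with Cu 3 between the Control libraries, unlike those of TLE6. TLE4 stood at 1.70 and 2.04 FPKM for the Control libraries versus 4.71 and 2.14 FPKM for the Cu libraries (log2 fold change 0.56, SE 0.42). Its groups were narrowly separate with Cu higher, as in 25.4% of all tested genes. TLE3 was under 1 FPKM in all libraries. TLE5, listed under its older symbol AES, had 0 to 1.87 FPKM, and no row was matched for TLE1. The genes whose levels over the 4 libraries were most like those of TLE6, among 1962 genes within 1 log2 unit of its mean, were UTP3, MRPS10 and MRPL58, with Pearson's r over 0.99 for each as a description over 4 points, and 0.815% of these 1962 genes had an r over 0.99.

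OOEP had the highest FPKM of the complex genes in every library, and its difference was of the size of the spread within Control. It stood at 2055 and 1006 FPKM for the Control libraries versus 3075 and 2073 FPKM for the Cu libraries. Cu 3 was thus only just above Control 1, and Control 2 was about as far below Control 1 as Cu 1 was above it on a linear scale. The means were 1531 ± 742 FPKM in Control and 2574 ± 709 FPKM in Cu (SD, n = 2 each), and the log2 fold change was 0.81 (SE 0.40, 95% interval -0.18 to 1.80, adjusted p = 0.717 in limma's test). It was 0.30 without Control 2 and 1.33 without Control 1, and 0.53 without Cu 1. Without Cu 3 it was 1.10, with an adjusted p by limma of 0.0402. The authors' mean FPKM were 1718 for Control and 2757 for Cu. Among only 66 genes within 1 log2 unit of OOEP, POLR2J, TOMM7 and SNRPC had the most similar levels, with r of 0.932, 0.889 and 0.885 over the 4 libraries.

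KHDC3L, the other KH-domain member, was far lower than OOEP. It stood at 5.64 and 4.65 FPKM for the Control libraries versus 10.3 and 5.98 FPKM for the Cu libraries, so that Cu 1 stood out and Cu 3 lay close to Control 1. The log2 fold change was 0.54 (SE 0.41, 95% interval -0.46 to 1.53, adjusted p = 0.786 in limma's test), and it was 0.19 without Cu 1 and 0.89 without Cu 3. The authors' mean FPKM were 8.04 for Control and 7.67 for Cu, in the opposite order to the libraries analysed here, and the mean of 8.04 lay above both Control libraries. POLR1B, SCARB2 and MRPS15 had the levels most like KHDC3L, each with r of 0.999 over 4 libraries.

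OOEP and KHDC3L are neighbours on chromosome 1, at chr1:53006898-53007877 and chr1:52996706-52999074 of Sscrofa11.1, with 7823 bases between them. DPPA5, a KH-domain gene expressed in pluripotent cells and germ cells, lies on the other side of KHDC3L at chr1:52986462-52987596. DPPA5 stood at 3732 and 4457 FPKM for the Control libraries versus 9201 and 8827 FPKM for the Cu libraries. Both Cu libraries were about equally far above Control, with a log2 fold change of 1.14 (SE 0.22, unadjusted p = 0.00204 and adjusted p = 0.631 in limma's test), which passed the unadjusted limit of p but not that of fold change. Of this block of KH genes, OOEP was 216 to 364 times KHDC3L and DPPA5 was 662 to 1476 times KHDC3L in the same library. KHDC1 and KHDC1L of the same family were not matched.

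PADI6 differed between the Cu libraries more than between the groups. It stood at 82.0 and 63.1 FPKM for the Control libraries versus 219 and 46.6 FPKM for the Cu libraries, so that the highest and the lowest library were both Cu, 4.71-fold apart. The log2 fold change was 0.49 (SE 0.70, 95% interval -1.23 to 2.21, adjusted p = 0.886 in limma's test), and it was 1.60 without Cu 3 (adjusted p = 0.00155 in limma's test) and -0.62 without Cu 1. The standard deviation of its log2 levels over the 4 libraries, 0.96, exceeded that of 94.0% of the tested genes. The authors' mean FPKM were 66.9 for Control and 106 for Cu. The genes most like PADI6 in their levels were CLK2, GLRX and TDH, each with r over 0.99 over the 4 libraries.

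PADI6 lies at chr6:75969855-75987097 of Sscrofa11.1, next to PADI4 and within the cluster of PADI genes, which encode enzymes that convert arginine to citrulline. PADI4 was the only other tested member of that family, at 14.4 and 9.86 FPKM for the Control libraries versus 14.9 and 15.8 FPKM for the Cu libraries. It did not share the high value of PADI6 in Cu 1, and had a log2 fold change of 0.34 (SE 0.36). PADI1, PADI2 and PADI3 had between 0 and 1.21 FPKM. PADI6 was 5.70 and 6.40 times PADI4 in Control 1 and 2, 14.7 times in Cu 1 and 2.94 times in Cu 3.

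NLRP5, the scaffold of the complex, had low FPKM in all libraries. It stood at 3.59 and 3.38 FPKM for the Control libraries versus 8.70 and 1.88 FPKM for the Cu libraries, again with the highest and the lowest value in Cu and the Control libraries close together. The log2 fold change was 0.24 (SE 0.61, 95% interval -1.27 to 1.74, adjusted p = 0.944 in limma's test). Without Cu 1 it was -0.64, without Cu 3 it was 1.11 (adjusted p = 0.0447 in limma's test), and after quantile normalization it was -0.04. The authors' mean FPKM were 3.40 for Control and 4.27 for Cu. Its closest genes by level over the libraries were LTF, STK11 and BAG6, 3 of the 68 genes with an r over 0.99 among 3559 within 1 log2 unit.

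NLRP5 lies at chr6:60375670-60418908 of Sscrofa11.1, beside NLRP8, NLRP13 and NLRP4 of the same family, of which several members are expressed in oocytes. Of 8 other reproductive NLRP genes, 6 were tested, 2 with a higher and 4 with a lower mean in Cu, and none reached an unadjusted or an adjusted p of 0.05 with limma. Their median log2 fold change was -0.18. NLRP9 stood at 541 and 693 FPKM for the Control libraries versus 650 and 397 FPKM for the Cu libraries. Its groups overlapped, as did those of NLRP11 and NLRP13. The log2 fold changes were -0.27 for NLRP9 (SE 0.33), -0.09 for NLRP11, -0.33 for NLRP13 and -0.32 for NLRP4, the last with both Cu libraries below both Control libraries, as in 13.4% of all tested genes. NLRP7 and NLRP8, named after their values were seen, had log2 fold changes of 1.70 (SE 0.85) and 1.27 (SE 0.88). The groups of NLRP7 were separate with Cu higher, as in 25.4% of all tested genes, while those of NLRP8 overlapped. The separation of NLRP7 was narrow, with 15.6 FPKM in Cu 3 and 14.2 FPKM in Control 2. NLRP7 and NLRP8 had 107 and 17.5 FPKM in Cu 1 against at most 15.6 and 2.04 FPKM in the other libraries. They thus shared with NLRP5 the high value in Cu 1, while NLRP4, NLRP9, NLRP11 and NLRP13 did not. NLRP2 and NLRP14 were below 1 FPKM in all libraries. Reads can be shared between near-identical NLRP or PADI copies, so the values of these families are uncertain.

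**Figure D3:**
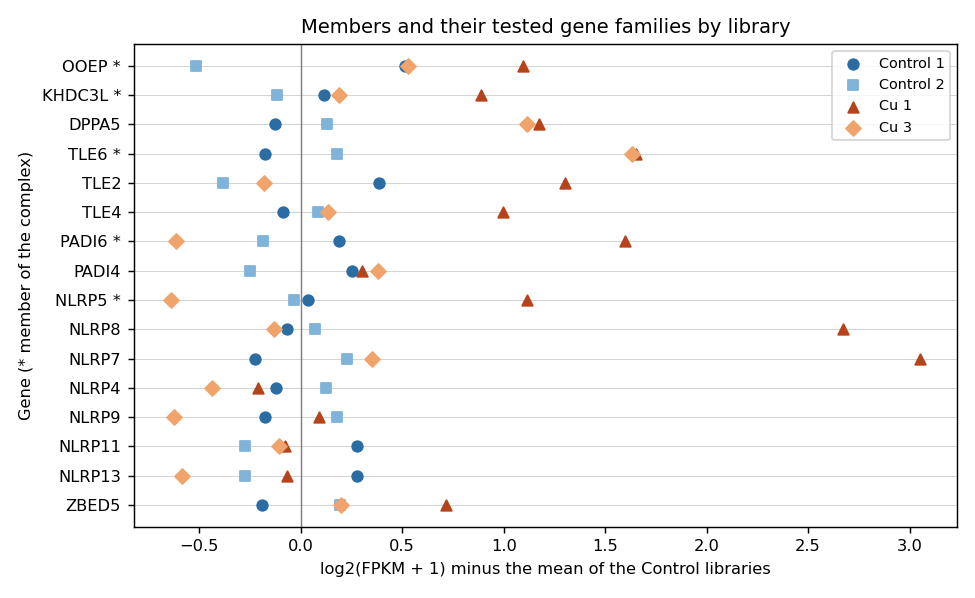
Log2(FPKM + 1) of each library minus the mean of the Control libraries, for the tested members (asterisk) and the tested genes of their families. TLE6 and DPPA5 have both Cu libraries far to the right, whereas PADI6, NLRP5, NLRP8 and NLRP7 are far to the right in Cu 1 but not in Cu 3.

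ZBED3 was near the lower limit of the table, at 0.03 and 0.01 FPKM for the Control libraries versus 0.09 and 0.22 FPKM for the Cu libraries. Cu exceeded Control without overlap, as in 21.8% of the 16050 genes with values. All values of ZBED3 were below 1 FPKM, however, and the smallest was the rounding limit of 0.01. In the fit without a filter, which had 16050 genes, the log2 fold change was 0.18 (SE 0.069, adjusted p = 0.789 in limma's test). The authors' mean FPKM were 0.06 for Control and 0.12 for Cu. ZBED3 lies at chr2:85945357-85958452 of Sscrofa11.1. Of the ZBED family, 4 genes had values and only ZBED5 was tested, at 1.30 and 2.0 FPKM for the Control libraries versus 3.31 and 2.01 FPKM for the Cu libraries, giving a log2 fold change of 0.46 (SE 0.38).

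The proportions between members, which do not depend on the scaling of a library, were also compared. The ratio that varied least of the 15, singled out for that after the values were seen, was that of PADI6 to NLRP5, PADI6 being 22.8 and 18.7 times NLRP5 in Control 1 and 2 and 25.2 and 24.8 times in Cu 1 and 3. This ratio varied 1.35-fold over the libraries, in which PADI6 itself varied 4.71-fold, and it was slightly higher in both Cu libraries than in both Control libraries. Over the 4 libraries the log2 levels of PADI6 and NLRP5 had r = 0.986, the highest of the 10 pairs of tested members, a value that 2.41% of the tested genes reached with NLRP5. TLE6 was 2.62 and 4.13 times KHDC3L in Control 1 and 2 and 5.34 and 9.10 times in Cu 1 and 3. It was 4.12 and 5.69 times NLRP5 in Control against 6.34 and 28.9 times in Cu. Both ratios were higher in the Cu libraries without overlap. The ratios of OOEP, PADI6, KHDC3L and NLRP5 to ZBED3 were lower in Cu without overlap. The share of such ratios over all gene pairs was not computed. The separation of these ratios, and of PADI6 to NLRP5, is therefore a description only. Against OOEP and PADI6 the ratios of TLE6 overlapped between the groups. OOEP was 139 and 52.3 times TLE6 in Control 1 and 2 and 55.8 and 38.1 times in Cu 1 and 3, and PADI6 was 5.54 and 3.28 times TLE6 in Control and 3.98 and 0.856 times in Cu. The r of TLE6 with NLRP5 and PADI6 was 0.188 and 0.275.

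Genes linked to the complex or to single members of it, not all in oocytes, were described next. The list had 19 symbols, of which 17 were tested. Of these, 11 had a higher and 6 a lower mean in Cu, the median log2 fold change was 0.39, and 0 of the 17 passed limma's test at an adjusted p of 0.05. The Cu libraries lay wholly above Control for 4 genes and wholly below it for 2, beside 25.4% and 13.4% of all tested genes. An unadjusted p of 0.05 was reached by 4 of the 17, beside 7.01% of all tested genes, namely YWHAB and UBE2D3 on the lower side and SKP1 and PARP1 on the higher side, and none passed the fold change limit. YWHAB, a 14-3-3 protein, stood at 592 and 483 FPKM for the Control libraries versus 314 and 166 FPKM for the Cu libraries (log2 fold change -1.22, SE 0.37, adjusted p = 0.641 in limma's test). UBE2D3, a ubiquitin-conjugating enzyme, stood at 1776 and 1678 FPKM for the Control libraries versus 935 and 1155 FPKM for the Cu libraries, giving a log2 fold change of -0.73 (SE 0.24). SKP1, an adaptor of ubiquitin ligases, stood at 275 and 321 FPKM for the Control libraries versus 502 and 487 FPKM for the Cu libraries, giving a log2 fold change of 0.73 (SE 0.25). PARP1, a DNA damage sensor, stood at 1.90 and 5.22 FPKM for the Control libraries versus 8.19 and 11.9 FPKM for the Cu libraries, giving a log2 fold change of 1.36 (SE 0.49). The groups did not overlap for any of these 4 genes, which had been picked by p in the same libraries. DNMT1, the maintenance DNA methyltransferase, had 2671 to 3304 FPKM and a log2 fold change of -0.13 (SE 0.23), and YWHAE had one of 0.41 (SE 0.45).

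Other maternal-effect genes, those whose product in the egg is needed by the embryo, were described in the same way. Of 12 symbols 11 were tested, 7 with a higher and 4 with a lower mean in Cu and a median log2 fold change of 0.39, and 0 of the 11 passed limma's test at an adjusted p of 0.05. An unadjusted p of 0.05 was reached by 3 of the 11, ZAR1, ZAR1L and BTG4, beside 7.01% of all tested genes. ZAR1L, an RNA-binding protein of stored maternal mRNA, stood at 164 and 303 FPKM for the Control libraries versus 450 and 459 FPKM for the Cu libraries, giving a log2 fold change of 1.02 (SE 0.36). Its relative ZAR1 had a log2 fold change of 1.36 (SE 0.54), with 24.9 FPKM in Cu 1 and 4.56 to 8.84 FPKM in the other libraries. BTG4, an adaptor of maternal mRNA deadenylation, stood at 26512 and 24654 FPKM for the Control libraries versus 16671 and 17672 FPKM for the Cu libraries, both Cu libraries being lower (log2 fold change -0.57, SE 0.20). DPPA3 and NPM2 had overlapping groups, with log2 fold changes of -0.14 (SE 0.25) and 0.79 (SE 0.60).

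Of 7 transcription factors that direct oocyte gene expression, 5 were tested, and 0 of 5 reached an unadjusted or an adjusted p of 0.05 with limma. Their median log2 fold change was 0.67, beside 0.16 for all tested genes. A higher mean in Cu was found for 4 of the 5, beside 64.3% of all tested genes. FIGLA, a regulator of zona pellucida and other oocyte genes, stood at 1.87 and 0.96 FPKM for the Control libraries versus 15.4 and 2.21 FPKM for the Cu libraries. LHX8 had 67.9 FPKM in Cu 1 and 13.7 to 22.8 FPKM in the other libraries, and NOBOX had 10.6 FPKM in Cu 1 and 1.98 to 2.79 FPKM in the others. With TAF4B, 4 of the 5 genes were highest in Cu 1, beside 51.0% of all tested genes, and TBPL2 was not, with 10.97 FPKM in Cu 1 and 10.5 to 14.1 FPKM in the others. The 9 oocyte identity markers had a median log2 fold change of 0.07, with 5 higher and 4 lower and 0 at an unadjusted p of 0.05. The log2 fold changes of H1FOO, ZP4, BMP15 and ZP2 were -0.31, -0.30, 0.49 and 0.59.

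**Figure D4:**
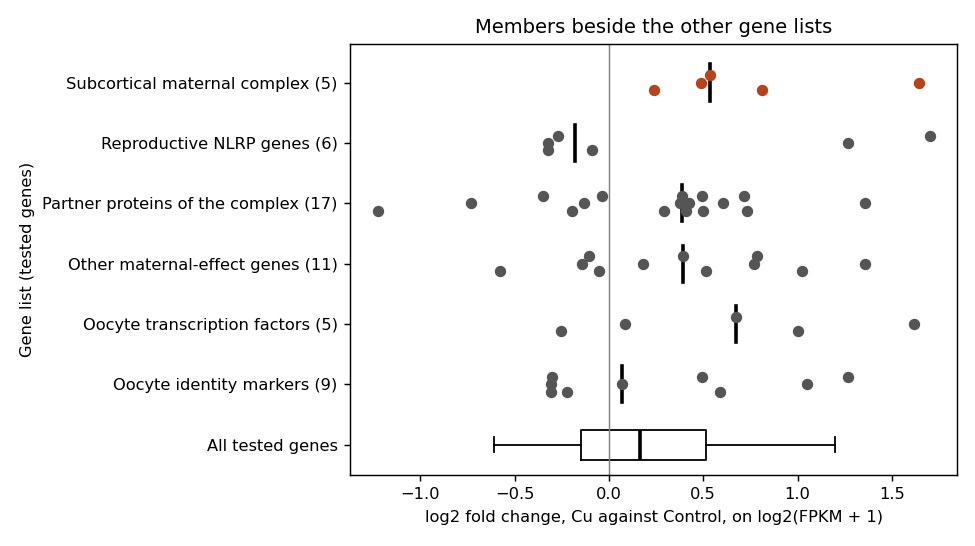
Log2 fold change of Cu against Control for the tested genes of each list (points, with a bar at the median of the list) and for all 8541 tested genes (box from the lower to the upper quartile with the median, whiskers at the 5th and 95th percentiles). The 5 complex genes all lie above 0 with a median of 0.54, and TLE6 is the only one beyond the upper whisker.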

How the data were processed

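The deposited values are FPKM, which the authors rounded to 2 decimals, and no read counts were used, so depth and counting error are unknown. By the paper's methods reads were filtered with SOAPnuke, mapped with HISAT2 and Bowtie2 and quantified with RSEM. The submitters' processing notes name TopHat2 2.0.13, Cufflinks 2.2.1, Cuffnorm and Cuffdiff and the build Sscrofa11.1, and which pipeline made the table is not stated. The methods describe 3 libraries per group, and 2 of each were analysed here. The authors' group means have the decimals of a mean over 3 libraries in 16050 of 16050 genes and are given as the authors' means only.

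Groups came from the sample titles, and the FPKM columns were matched to the titles by first letter and replicate number. log2(FPKM + 1) of the 8541 genes that reached 1 FPKM in 2 or more libraries was fitted with limma 3.58.1 in R 4.3.3 (variance trend, Benjamini-Hochberg over all tested genes), and the function was tested on simulated data. Genes were also counted at an unadjusted p of 0.05, alone and with a log2 fold change of 1.5. All 16050 gene identifiers matched the RefSeq table of Sscrofa11.1, from which positions were taken.

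Members and lists were chosen with earlier results of these data known. The text names all members, the 4 tested genes of each list with the highest mean FPKM, list genes at an unadjusted p of 0.05, and for each tested member the 3 genes with the highest Pearson's r among those within 1 log2 unit of its level. Genes beside a member were added after values were seen. Alternatives were a pseudocount of 0.1, other filters, scalings and variance models, and leaving out each library. Scaling to the oocyte identity markers was added after the data had been seen.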

Additional observations from a re-analysis of the deposited data

How the results depend on the processing

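TLE6 and OOEP kept a higher mean in Cu under all alternatives run, between 1.41 and 1.82 and between 0.30 and 1.33 on the log2 scale. NLRP5 turned to -0.038 after quantile normalization, and KHDC3L to -0.060 by the authors' means. Without each library in turn, the log2 fold change ranged from -0.64 to 1.11 for NLRP5, -0.62 to 1.60 for PADI6, 1.46 to 1.82 for TLE6 and 0.30 to 1.33 for OOEP. The lowest values of NLRP5 and PADI6 were those without Cu 1.

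Leaving out a library gave 0 to 4 members with an adjusted p of 0.05 (4 without Cu 3, namely NLRP5, TLE6, OOEP and PADI6, and TLE6 without Cu 1) and 0 to 1755 genes (186 without Cu 1, 1755 without Cu 3). In these fits the lone library left in a group is assumed to vary like the other group. Members past both limits of unadjusted p and fold numbered 0 with median-of-ratios or upper-quartile scaling or scaling to the oocyte markers, and 0 to 2 without each library. Members without overlap of the groups numbered 2 with median-of-ratios or upper-quartile scaling, both with Cu above, beside 19.2% of all tested genes in each. They numbered 1, with Cu above, after quantile normalization or scaling to the oocyte markers, beside 16.7% and 13.5% of all tested genes. Without each library they numbered 3 to 5 in either direction, beside 58.7% to 83.5% of all genes. Of the 5 without Cu 1, 3 lay above Control and 2, NLRP5 and PADI6, below it, and the 5 without Cu 3 all lay above.

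Over all genes, the limits of unadjusted p and fold were passed by 150 higher and 10 lower genes, by 246 and 24 with a pseudocount of 0.1, by 82 higher without a filter, and by 77 to 741 and 11 to 41 without each library. The lower genes numbered 20 with quantile normalization, median-of-ratios or upper-quartile scaling and 24 with scaling to the oocyte markers, which also gave 41 genes at an adjusted p of 0.05. These 4 scalings moved the median of all genes to between -0.049 and 0.015, and the upward share of the genes past both limits from 93.8% to between 83.7% and 84.6%.

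In Cu 3 on its own, 14 of the 15 member pairs kept their order. No paired analysis was possible because the groups share only replicate number 1. The cause of these changes was not tested, and with unknown depth the precision of NLRP5, KHDC3L and ZBED3 cannot be stated.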

Other observations

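Genes beside the members on Sscrofa11.1, looked at after the values were seen, did not all follow them. DDX43, an RNA helicase gene on the other side of OOEP at chr1:53021166-53040169, stood at 76.4 and 83.5 FPKM for the Control libraries versus 77.7 and 69.5 FPKM for the Cu libraries, giving a log2 fold change of -0.12, while OOEP, KHDC3L and DPPA5 in the same stretch had 0.81, 0.54 and 1.14. LOC100511846, on the far side of DPPA5, had 737 to 1006 FPKM, below OOEP and DPPA5 and above KHDC3L in each library, and a log2 fold change of 0.15. Beside PADI6, RCC2, a regulator of chromosome condensation, had 50.1 FPKM in Cu 1 and 19.9 to 21.8 FPKM in the other libraries. It was thus highest in Cu 1 as PADI6 was, and as 51.0% of all tested genes were. Near ZBED3, which was under 1 FPKM, the homeobox gene OTP stood at 41.0 and 20.1 FPKM for the Control libraries versus 47.9 and 44.6 FPKM for the Cu libraries, and PDE8B, a cyclic AMP phosphodiesterase gene, had 16.3 to 20.8 FPKM.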
